A study of Homo sapiens with 18 samples.

Results

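The p53 target genes examined here are 37 genes that the tumour suppressor p53 is known to switch on, taken without CDKN1A, the target that was itself knocked down in the study. They were taken as a list of gene symbols known as p53 targets and regulators, by a rule that uses no measured value, though the list was drawn up with earlier results of these data known. All 37 were found among the 35579 genes and among the 13527 genes that passed the filter on low counts. The list has 6 roles: 6 genes of growth arrest, 5 of DNA repair, 12 of cell death and survival, 4 of feedback on p53, 7 of metabolism and autophagy, and 3 other targets. p53 is a transcription factor that is held at a low level by MDM2, the ubiquitin ligase that marks it for degradation and that is itself a p53 target. DNA damage and other stresses stabilise p53, which then binds paired copies of a short motif near its targets and raises their transcription. In fibroblasts this response is known for a cell cycle arrest carried largely by p21, the product of CDKN1A, and the same targets have a lower basal expression in unstressed cells.

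Bulk poly(A) RNA was sequenced from hiF-T cells, a human fibroblast-like line made from BJ skin fibroblasts that carries an inducible telomerase (hTERT) transgene and is labelled wild type. The 18 libraries comprised 4 with a control guide (titled backbone, guides 1 and 2), 4 with guides against CDKN1A (guides 1 and 2), 4 with guides against KDM1A (guides 2 and 3) and 6 with guides against SPP1 (guides 1, 2 and 3), with biological replicates 1 and 2 for each guide. KDM1A encodes the histone demethylase LSD1, and SPP1 encodes osteopontin, a secreted phosphoprotein. The series calls the perturbation a CRISPR knockdown and concerns the pluripotency potential of rare somatic cells. The sources used here do not say how the guides lower the mRNA, whether the control guides are non-targeting, or whether replicates 1 and 2 are separate cultures. The p-values therefore measure the spread between these libraries, which may be technical. No agent that damages DNA is named in the labels of any group.

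Libraries held 11.91 to 17.02 times 1e6 estimated counts. Of 8 fibroblast markers, 7 were above 1 CPM (TMM-scaled counts per library of 1e6 counts) and their summed level was 15500 to 16200 CPM in the control libraries. THY1 was under 1 CPM, as were all 4 melanocyte markers and 5 of 6 endothelial and leukocyte markers in each group. CD68, the endothelial and leukocyte marker above 1 CPM, had guide means of 51.2 to 70.2 CPM. Keratinocyte markers summed to 52.7 to 70.1 CPM over all libraries. KRT10 carried nearly all of that sum, at guide means of 51.5 to 67.1 CPM, and KRT1 was at 0. The targeted mRNA was lower in each group of guides. CDKN1A mRNA was 695, 628, 586 and 540 CPM in the control libraries and 290, 275, 435 and 427 CPM in the CDKN1A libraries (log2 fold change -0.78 ± 0.13 SE, adjusted p = 0.00394). KDM1A mRNA was 118 ± 6.03 CPM (SD, n = 4) in the control libraries and 62.7 ± 13.1 CPM (n = 4) with its own guides. SPP1 mRNA was 64.6 ± 7.28 CPM in the control libraries and 21.7 to 63.0 CPM in the 6 libraries with SPP1 guides, a difference that did not pass the test (log2 fold change -0.70 ± 0.22, adjusted p = 0.0695). With SPP1 guide 3 the replicates were at 63.0 and 21.7 CPM. These p-values and those that follow are from edgeR's quasi-likelihood test with Benjamini-Hochberg adjustment over all 13527 genes, and a gene is said to rise or fall where the adjusted p was under 0.05.

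The motif that p53 binds is a decamer of 3 purines, C, a pair of A or T, G and 3 pyrimidines, and a full element is a pair of such decamers with a spacer of up to 13 bases. The decamer reads alike on both strands. RefSeq promoter windows (GRCh38.p14, 250 bases before to 50 after a start site) were found for 31 of the 37 genes. A decamer lay in a window of 7 of the 31 genes (22.6%), against 2202 of the 27305 genes with a window (8.06%). A gene can have several windows. Counted by window, it was 7 of 47 (14.9%) against 2329 of 35116 (6.63%). A pair lay in windows of 2 of the 31, PTCHD4 and DDB2, against 10 of the 27305 genes (0.0366%). A match is only a match of letters, and the lack of one says only that these letters are not in the window. The windows of 4 of the 7 genes with a decamer are printed with the decamers in capitals: the pair in PTCHD4 and in DDB2, and a single decamer in FDXR and in SESN1.
PTCHD4, chr6:48111148-48111447, minus strand: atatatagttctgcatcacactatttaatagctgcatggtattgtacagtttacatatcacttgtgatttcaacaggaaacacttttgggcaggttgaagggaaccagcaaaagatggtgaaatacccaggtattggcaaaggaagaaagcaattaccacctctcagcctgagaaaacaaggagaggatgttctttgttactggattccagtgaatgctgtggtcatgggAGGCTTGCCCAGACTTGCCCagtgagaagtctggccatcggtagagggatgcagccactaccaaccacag
DDB2, chr11:47214724-47215023, plus strand: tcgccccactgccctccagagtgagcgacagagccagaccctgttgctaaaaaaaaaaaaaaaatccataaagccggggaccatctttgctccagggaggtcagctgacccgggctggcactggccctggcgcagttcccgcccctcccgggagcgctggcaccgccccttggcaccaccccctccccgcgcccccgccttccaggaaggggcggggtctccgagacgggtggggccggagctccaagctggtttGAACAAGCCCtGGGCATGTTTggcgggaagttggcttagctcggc
FDXR, chr17:74872945-74873244, minus strand: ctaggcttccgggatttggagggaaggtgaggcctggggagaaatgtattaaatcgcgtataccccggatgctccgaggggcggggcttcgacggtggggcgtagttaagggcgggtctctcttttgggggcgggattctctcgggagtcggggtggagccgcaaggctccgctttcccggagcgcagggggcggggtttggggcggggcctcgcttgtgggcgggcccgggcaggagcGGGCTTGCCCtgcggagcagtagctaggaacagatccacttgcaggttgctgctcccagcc
SESN1, chr6:109008939-109009238, minus strand: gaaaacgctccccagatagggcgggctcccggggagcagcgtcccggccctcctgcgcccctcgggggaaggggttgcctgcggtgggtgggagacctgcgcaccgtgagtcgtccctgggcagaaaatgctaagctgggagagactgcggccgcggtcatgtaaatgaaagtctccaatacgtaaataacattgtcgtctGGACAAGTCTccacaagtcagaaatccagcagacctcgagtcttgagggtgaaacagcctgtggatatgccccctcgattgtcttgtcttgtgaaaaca
The PTCHD4 pair, AGGCTTGCCCAGACTTGCCC, has no spacer and begins 20 bases before the start site. Its window lies upstream of the bounds that GENCODE 29 gives the gene (chromosome 6, 47878028 to 48068689, minus strand). None of the GENCODE transcripts summed for PTCHD4 therefore begins at that start site. Which start site the counted RNA came from was not measured. The DDB2 pair has a spacer of 1 base and begins 6 bases after the start site, within the gene (chromosome 11, 47214465 to 47239240, plus strand). The remaining decamers lay in windows of PLK2, RPS27L and AEN. No window was matched for GADD45A, RRM2B, ASCC3, PHLDA3, TP53INP1 and TRIM22.

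Levels per transcript length spanned a wide range among the 37 genes in the control libraries. In TPM, the length-corrected unit of the deposited tables, RPS27L was the highest at 375 ± 28.8 (SD, n = 4), followed by BAX, the pore-forming apoptosis effector, at 274 ± 42.9, and GADD45A at 244 ± 13.2. MDM2 stood at 50.8 ± 4.70 TPM. At the low end were PTCHD4 at 2.78 ± 0.387, ACER2, an alkaline ceramidase, at 0.72 ± 0.198 and INPP5D, the SHIP1 inositol phosphatase, at 0.582 ± 0.23 TPM. For comparison, CDKN1A itself was at 507 ± 49.1 TPM, above every one of the 37. All later levels are in CPM, which compare libraries for a gene and not genes with each other.

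Of the p53 targets that passed the test against control, all were higher with CDKN1A knockdown and all were lower with SPP1 knockdown. With KDM1A knockdown, all that passed but CYFIP2 were lower. Within each of these 3 comparisons most of the 37 did not pass, and 16 passed in none of them. Against control, 10 of the 37 rose and none fell in the CDKN1A libraries, beside 1.09% of all genes tested called higher and 0.917% called lower. Those that rose were CCNG2, RRM2B, DDB2, INPP5D, CYFIP2, TP53INP1, FDXR, SPATA18, PTCHD4 and TRIM22. The median log2 fold change of the 37 was 0.23, beside -0.00 over all genes tested, and 31 of the 37 lay above 0 (all genes, 48.9%). INPP5D passed the filter on low counts through the CDKN1A libraries alone and so had to differ there. Without it, 9 of 36 rose and the median was 0.22. In the KDM1A libraries 11 of the 37 fell and 1, CYFIP2, rose, beside 3.72% of all genes called lower and 5.33% called higher. The median was -0.19 (all genes, -0.01). In the SPP1 libraries 10 fell and none rose, beside 3.06% called lower and 2.40% called higher, with a median of -0.19 (all genes, 0.00), or -0.14 without INPP5D. Counted by libraries alone, every CDKN1A library was above every control for 14 of the 37 (6.46% of all genes) and below for 1 (6.65%). Every KDM1A library was above every control for 2 (8.19%) and below for 12 (7.49%), and every SPP1 library was above for 0 (2.96%) and below for 7 (3.37%). INPP5D is among the 14, where it had to differ through the filter, and on few counts also among the 12. These 3 comparisons share the 4 control libraries, so their agreement or opposition is not independent.

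**Figure D1:**
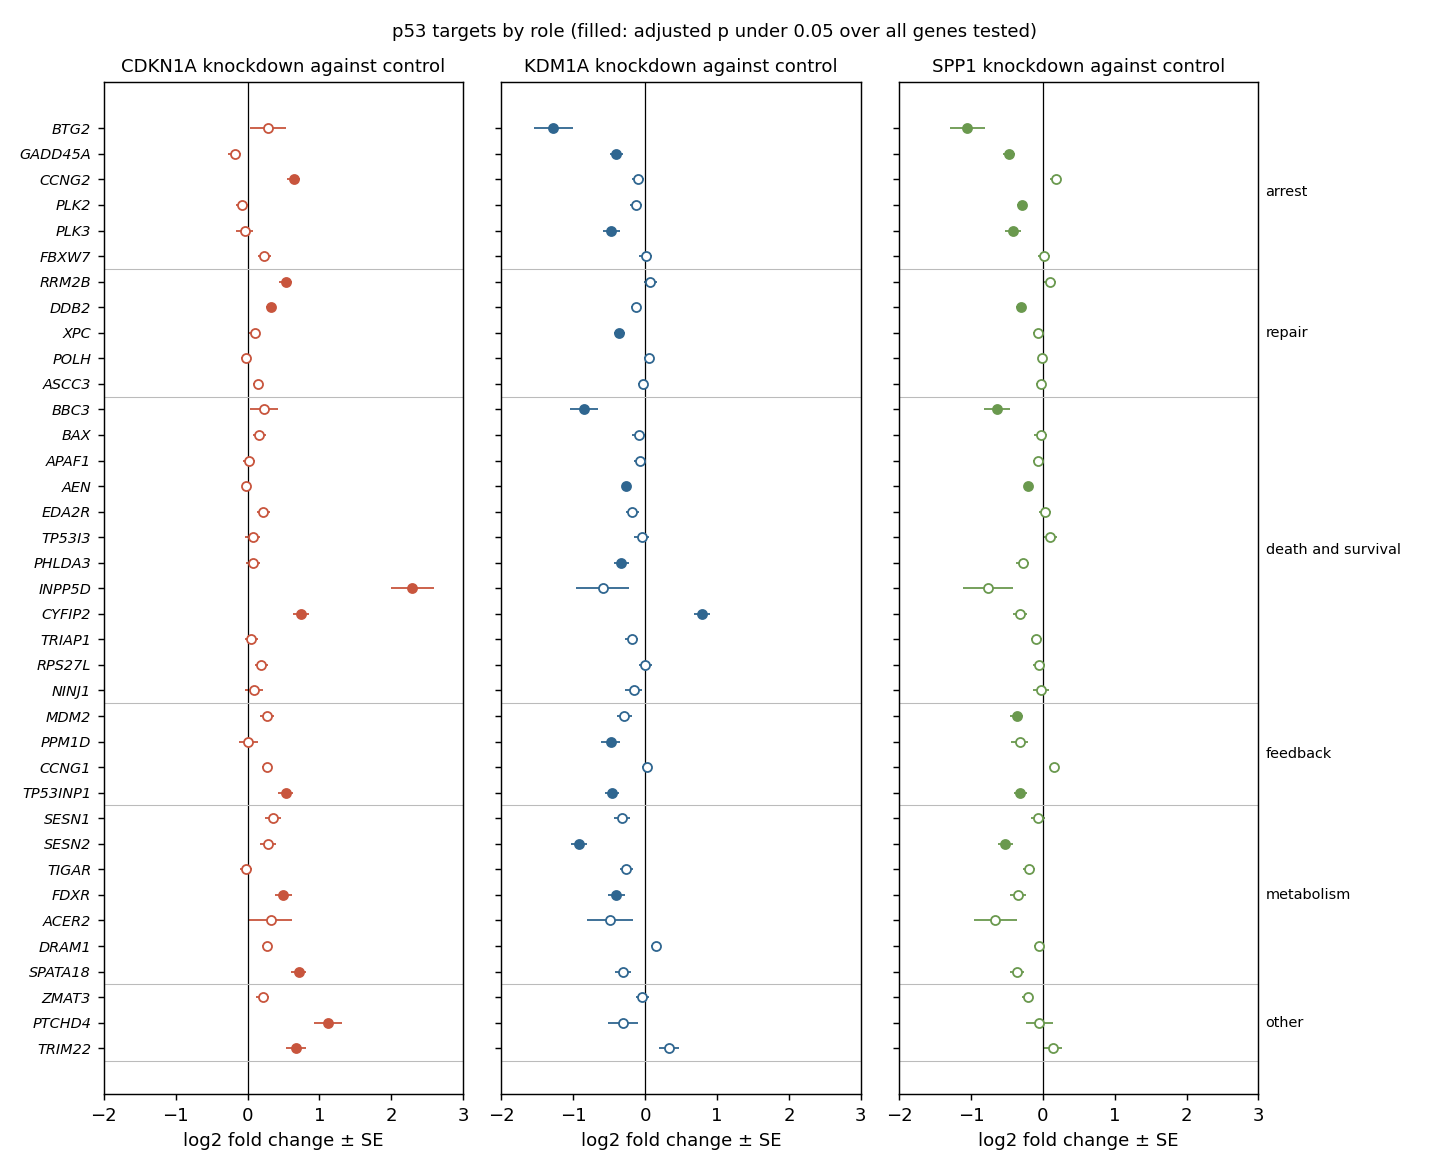
Log2 fold change (horizontal axis, ± SE) against the 4 control libraries of the 37 p53 targets, grouped by role, for CDKN1A, KDM1A and SPP1 knockdown. Filled points passed an adjusted p of 0.05: 10 are higher in the CDKN1A panel, 11 lower and 1 higher in the KDM1A panel, and 10 lower in the SPP1 panel. INPP5D, filled in the CDKN1A panel, passed the filter on low counts through the CDKN1A libraries alone.

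Treating each library as a replicate bears on these counts: with the libraries of each guide summed, 0 of the 10 calls with CDKN1A knockdown, 2 of the 12 with KDM1A knockdown and 0 of the 10 with SPP1 knockdown were kept, in a fit with 9 samples. The control libraries bear on them too. Between control guides, guide 2 gave lower values than guide 1 for 28 of the 37 genes (median log2 difference -0.15). That count is given without the share over all genes. PLK3 passed the test between the control guides (-0.47 ± 0.09, adjusted p = 0.0129), beside 0.554% of all genes called higher and 0.784% called lower with guide 2. Without the libraries of control guide 1, 7 of the 10 calls with CDKN1A knockdown, 2 of the 12 with KDM1A knockdown and 0 of the 10 with SPP1 knockdown were kept, and without those of control guide 2 it was 7 of 10, 12 of 12 and 8 of 10. Single control libraries mattered too: without control guide 1 replicate 1, 7 of the 37 fell with KDM1A knockdown and 3 with SPP1 knockdown, and without control guide 1 replicate 2 it was 7 and 2. Without KDM1A guide 3 replicate 2, 7 fell with KDM1A knockdown, and without SPP1 guide 2 replicate 2 or SPP1 guide 3 replicate 1, 5 fell with SPP1 knockdown. Without the libraries of CDKN1A guide 1, 6 rose with CDKN1A knockdown.

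Of the 6 arrest genes, 1 rose with CDKN1A knockdown, 3 fell with KDM1A knockdown and 4 fell with SPP1 knockdown. CCNG2, an unconventional cyclin linked to cell cycle exit, was at 12.4, 12.3, 11.8 and 11.2 CPM in the control libraries and at 20, 17.4, 19.3 and 17.5 CPM in the CDKN1A libraries. The groups did not overlap, and CCNG2 rose by 0.64 ± 0.09 on the log2 scale (adjusted p = 0.00119). In the KDM1A libraries it was at 9.9, 10, 12.7 and 12.1 CPM and in the SPP1 libraries at 12.2 to 15.3 CPM (median 13.4), neither of which passed the test against control.

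BTG2, an antiproliferative cofactor of mRNA deadenylation, went the other way. It was at 8.57, 9.26, 6.08 and 6.37 CPM in the control libraries and at 3.72, 2.87, 3.27 and 2.7 CPM in the KDM1A libraries. The KDM1A libraries were all below the lowest control (2.42-fold lower, log2 fold change -1.28 ± 0.27, adjusted p = 0.00527). The SPP1 libraries spanned 1.3 to 5.89 CPM with a median of 3.61 and also lay below every control (log2 fold change -1.05 ± 0.24, adjusted p = 0.0177). In the CDKN1A libraries BTG2 was at 8.97, 9.79, 9.38 and 8.67 CPM, which overlaps the controls.

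GADD45A, a stress sensor that inhibits the mitotic kinase CDK1, was at 189, 178, 160 and 171 CPM in the control libraries. It was at 139, 145, 119 and 124 CPM in the KDM1A libraries (log2 fold change -0.40 ± 0.09, adjusted p = 0.00527) and at 104 to 146 CPM (median 122) in the SPP1 libraries (-0.47 ± 0.08, adjusted p = 0.00326). Neither group overlapped the controls. The CDKN1A libraries, at 154, 151, 155 and 156 CPM, were also below every control, the only one of the 37 genes for which this was so, but the difference did not pass the test (-0.18, adjusted p = 0.30). Among the polo-like kinases, which respond to stress, PLK3 fell with both KDM1A knockdown (-0.47 ± 0.12, adjusted p = 0.0205) and SPP1 knockdown (-0.41 ± 0.11, adjusted p = 0.0376), though it also differed between the control guides. PLK2 fell with SPP1 knockdown, from 159 to 176 CPM in the control libraries to 125 to 144 CPM (-0.29 ± 0.07, adjusted p = 0.0241). FBXW7, the substrate receptor of a ubiquitin ligase, passed the test in no comparison between groups.

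**Figure D2:**
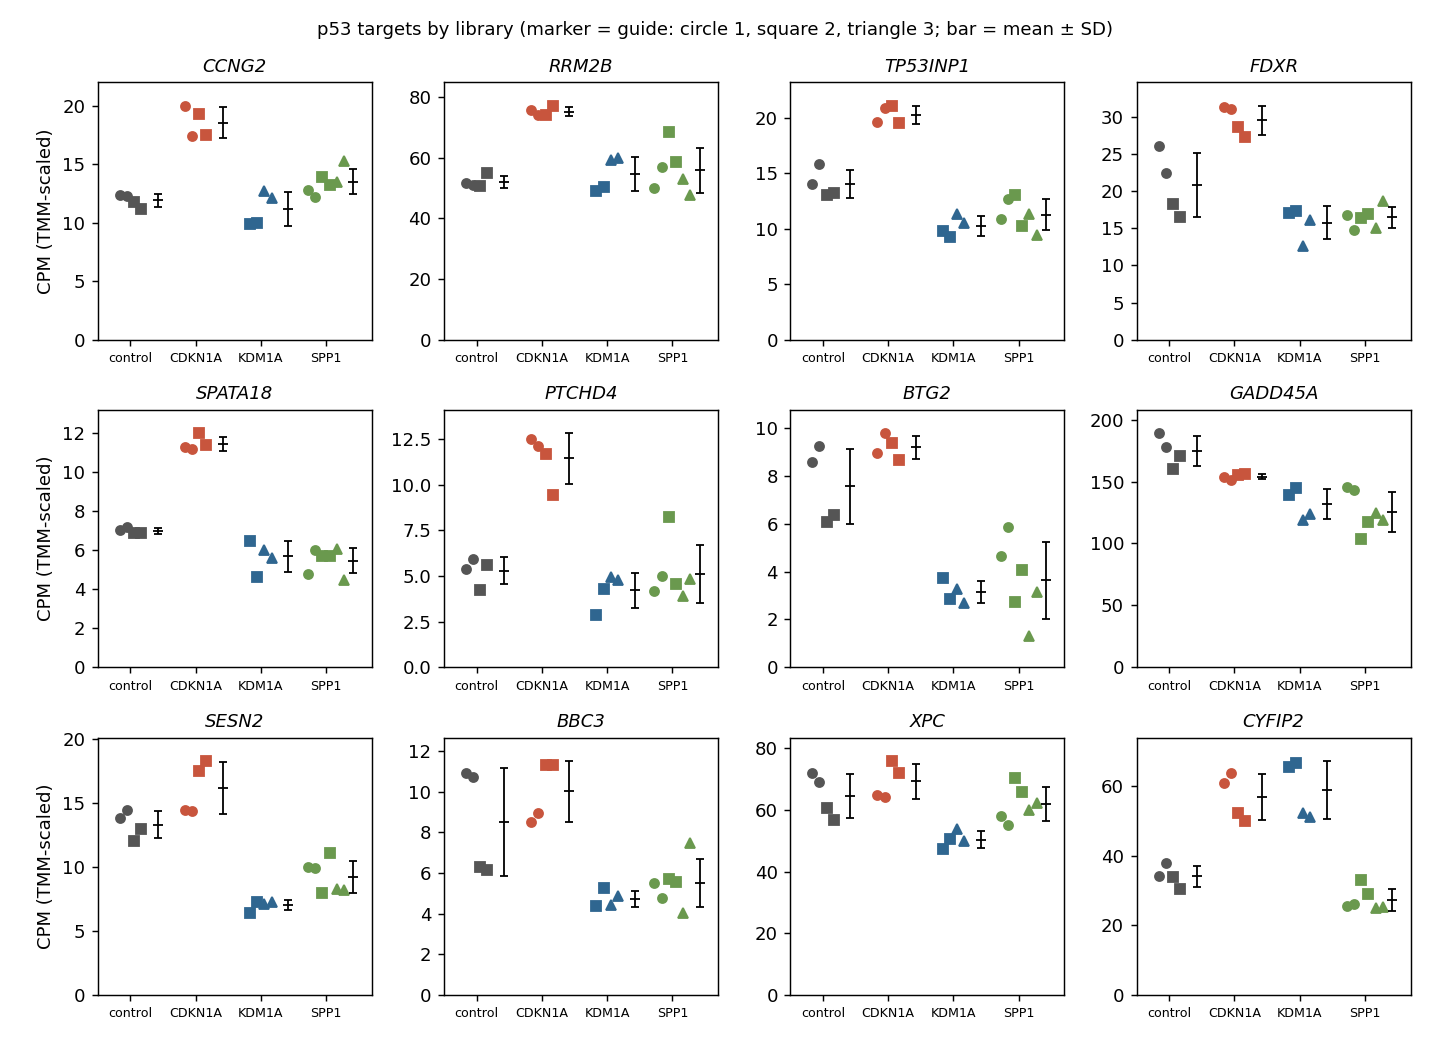
CPM per library (vertical axis, linear from 0) of 12 p53 targets in the control, CDKN1A, KDM1A and SPP1 libraries; each point is a library, its shape marks the guide, and bars give the mean ± SD. RRM2B, SPATA18 and CCNG2 stand above every control in the 4 CDKN1A libraries, and BTG2, SESN2 and BBC3 stand below every control in the 4 KDM1A libraries.

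Repair genes rose with CDKN1A knockdown in 2 of 5 cases. RRM2B, the p53-induced subunit of ribonucleotide reductase, was at 51.8, 50.9, 50.8 and 54.9 CPM in the control libraries and at 75.7, 74.0, 74.2 and 77.2 CPM in the CDKN1A libraries. The gap between these groups was far wider than the spread within either (log2 fold change 0.53 ± 0.09, adjusted p = 0.00409). RRM2B was at 49.1, 50.5, 59.4 and 59.8 CPM in the KDM1A libraries, which split by guide, and at 47.8 to 68.5 CPM (median 55.0) in the SPP1 libraries. DDB2, the damage-binding subunit that recognises ultraviolet lesions, and whose window holds a decamer pair, was at 34.2, 37.5, 29.6 and 30.9 CPM in the control libraries and at 42.5, 41.0, 41.1 and 39.9 CPM in the CDKN1A libraries. It rose there (0.32 ± 0.07, adjusted p = 0.0289) and fell in the SPP1 libraries, at 24.2 to 28.9 CPM with a median of 27.1 (-0.30 ± 0.07, adjusted p = 0.0138). XPC, which recognises lesions for nucleotide excision repair, fell with KDM1A knockdown to 47.4, 50.6, 53.8 and 49.8 CPM from 72.1, 69.1, 60.5 and 56.6 CPM (-0.36 ± 0.08, adjusted p = 0.00905). POLH, the translesion polymerase eta, and ASCC3, a helicase, passed in no comparison.

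Of the 12 genes of cell death and survival, 2 rose with CDKN1A knockdown, 1 rose and 3 fell with KDM1A knockdown and 2 fell with SPP1 knockdown. The apoptosis effectors BAX and APAF1, which encodes the apoptosome scaffold, passed in none of the 6 comparisons, nor did TP53I3, TRIAP1, RPS27L and NINJ1. Those that rose with CDKN1A knockdown were INPP5D and CYFIP2. INPP5D had 10, 6, 8 and 7 estimated counts in the control libraries and 55, 45, 35 and 25 in the CDKN1A libraries, that is 0.418 to 0.691 CPM against 1.9 to 3.47 CPM. Its log2 fold change was 2.29 ± 0.30, on few counts. Only the CDKN1A libraries met the filter for INPP5D, so its call is counted but not read as a result. CYFIP2, a subunit of the actin-regulating WAVE complex, was at 34.3, 37.9, 33.8 and 30.6 CPM in the control libraries and at 61.1, 64.0, 52.5 and 50.2 CPM in the CDKN1A libraries (0.74 ± 0.11, adjusted p = 0.00126). It rose as well in the KDM1A libraries, at 65.5, 66.9, 52.5 and 51.1 CPM (0.79 ± 0.11, adjusted p = 8.98e-05). The SPP1 libraries were at 25.1 to 33.2 CPM with a median of 25.9. CYFIP2 was the only one of the 37 to rise with both CDKN1A and KDM1A knockdown in the test between groups.

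BBC3, which encodes the BH3-only killer PUMA, was at 10.9, 10.7, 6.28 and 6.14 CPM in the control libraries, where it split by guide. It was at 4.36, 5.24, 4.44 and 4.84 CPM in the KDM1A libraries (1.8-fold lower, log2 -0.85 ± 0.20, adjusted p = 0.01) and at 4.02 to 7.49 CPM (median 5.52) in the SPP1 libraries (-0.64 ± 0.18, adjusted p = 0.0425). The KDM1A libraries lay below every control and the SPP1 libraries overlapped those of control guide 2. AEN, an apoptosis-enhancing nuclease, fell with KDM1A (-0.26 ± 0.06, adjusted p = 0.00558) and SPP1 knockdown (-0.20 ± 0.05, adjusted p = 0.033). PHLDA3, a repressor of the kinase Akt, fell with KDM1A knockdown (-0.33 ± 0.10, adjusted p = 0.0384). EDA2R, a member of the tumour necrosis factor receptor family, passed in no comparison with control.

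The feedback genes showed the opposition of the knockdowns in a single gene, TP53INP1. This cofactor promotes p53 activity and autophagy. It was at 14.0, 15.8, 13 and 13.2 CPM in the control libraries and at 19.6, 20.9, 21.0 and 19.5 CPM in the CDKN1A libraries (0.53 ± 0.10, adjusted p = 0.00853). In the KDM1A libraries it was at 9.74, 9.23, 11.3 and 10.5 CPM (-0.46 ± 0.10, adjusted p = 0.00598), and in the SPP1 libraries at 9.41 to 13 CPM, median 11.1 (-0.31 ± 0.09, adjusted p = 0.0486). TP53INP1 was the only one of the 37 called in all 3 comparisons with control that rose in 1 and fell in the other two. The fall with SPP1 knockdown did not pass with an effective-length offset (-0.32, adjusted p = 0.114), and with the libraries of each guide summed none of the 3 passed (adjusted p = 0.306, 0.0932 and 0.312). MDM2 was at 111, 128, 103 and 111 CPM in the control and at 120, 145, 141 and 141 CPM in the CDKN1A libraries, which overlap. It fell in the SPP1 libraries, at 67.2 to 104 CPM with a median of 86.5 (-0.36 ± 0.09, adjusted p = 0.0302). PPM1D, the phosphatase WIP1 that switches the damage response off, fell with KDM1A knockdown to 15.8, 14.8, 13.1 and 12.2 CPM from 24.3, 21.2, 17.5 and 14.8 CPM, a range that overlaps (-0.48 ± 0.13, adjusted p = 0.0222). CCNG1, a cyclin that recruits a phosphatase to MDM2, did not pass against control.

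Metabolic and autophagy genes gave 2 calls upward with CDKN1A knockdown, 2 downward with KDM1A knockdown and 1 downward with SPP1 knockdown, of 7. SPATA18, which takes part in mitochondrial quality control, was at 7.05, 7.18, 6.87 and 6.91 CPM in the control libraries and at 11.3, 11.2, 12.0 and 11.4 CPM in the CDKN1A libraries (0.71 ± 0.11, adjusted p = 0.00183). Every SPP1 library (4.5 to 6.07 CPM) and every KDM1A library (6.49, 4.62, 6.04 and 5.59 CPM) was below the lowest control, though neither difference passed the test. FDXR, the mitochondrial ferredoxin reductase, was at 26.1, 22.4, 18.3 and 16.5 CPM in the control libraries and rose to 31.3, 31.1, 28.6 and 27.3 CPM in the CDKN1A libraries (0.50 ± 0.12, adjusted p = 0.0351). It fell in the KDM1A libraries, at 17.1, 17.3, 12.6 and 16.1 CPM, which overlap those of control guide 2 (-0.40 ± 0.12, adjusted p = 0.0462).

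SESN2, a stress-induced inhibitor of the growth kinase complex mTORC1, was at 13.8, 14.5, 12.0 and 13 CPM in the control libraries. The KDM1A libraries were at 6.41, 7.24, 7.13 and 7.29 CPM (1.9-fold lower, log2 -0.92 ± 0.11, adjusted p = 3.35e-05) and the SPP1 libraries at 7.99 to 11.1 CPM with a median of 9.11 (-0.52 ± 0.10, adjusted p = 0.00731). Both groups lay below every control. The call with KDM1A knockdown was kept in every alternative tried, as was that of CYFIP2. SESN1, its relative, passed in no comparison with control. Of its main transcripts, chosen after their values were seen, SESN1-202 was at 3.77 ± 1.51 CPM in the control, 6.55 ± 0.851 in the CDKN1A, 2.0 ± 1.33 in the KDM1A and 3.01 ± 0.734 CPM in the SPP1 libraries, and SESN1-204 was at 4.89 to 5.32 CPM in each group mean. The printed SESN1 window with its decamer lies within SESN1-202 and downstream of the start of that transcript. TIGAR, a regulator of glycolysis, passed in no comparison.

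Of the 3 other targets, 2 rose with CDKN1A knockdown. PTCHD4, a patched-domain membrane protein whose window holds the decamer pair without a spacer, was at 5.39, 5.92, 4.23 and 5.59 CPM in the control libraries and at 12.5, 12.1, 11.7 and 9.43 CPM in the CDKN1A libraries. That was 2.17-fold higher (log2 1.12 ± 0.19, adjusted p = 0.0078), and no library of either group overlapped. It was at 2.85, 4.3, 4.95 and 4.77 CPM in the KDM1A libraries and at 3.89 to 8.24 CPM (median 4.69) in the SPP1 libraries. TRIM22, an interferon-inducible antiviral ligase, was at 29.2, 31.6, 38.5 and 37.7 CPM in the control and at 58.3, 63.8, 47.0 and 49.5 CPM in the CDKN1A libraries (0.68 ± 0.14, adjusted p = 0.0177). Every KDM1A library was also above every control for TRIM22, at guide means of 42.9 and 43.1 CPM. That difference passed the test with each KDM1A guide but not in the group (0.33 ± 0.14, adjusted p = 0.163). ZMAT3, an RNA-binding regulator of splicing, did not pass against control.

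Estimated counts also depend on which transcripts of a gene carry the reads. In the alternative with kallisto's effective transcript lengths as an offset, 3 of the 10 rises with CDKN1A knockdown passed the test: TP53INP1 (0.55, adjusted p = 0.0281), PTCHD4 (1.15, adjusted p = 0.0144) and TRIM22 (0.61, adjusted p = 0.0459). CCNG2 (0.56, adjusted p = 0.0609), FDXR (0.45, adjusted p = 0.151) and RRM2B (0.44, adjusted p = 0.119) kept most of their size. DDB2 went from 0.32 to 0.24 (adjusted p = 0.40), SPATA18 from 0.71 to 0.19 (adjusted p = 0.812), CYFIP2 from 0.74 to 0.34 (adjusted p = 0.113) and INPP5D from 2.29 to 1.37 (adjusted p = 0.122). The transcript SPATA18-201 held 67.2 ± 7.88% of the gene's estimated counts in the control and 81.7 ± 9.26% in the CDKN1A libraries.

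The knockdowns were also compared with each other, without the control levels. Against the KDM1A libraries, 20 of the 37 were higher in the CDKN1A libraries and none was lower, beside 6.89% of all genes called higher and 8.06% called lower, and the median of the 37 was 0.40. For 29 of the 37 every CDKN1A library was above every KDM1A library, which held for 11.9% of all genes, and for none was it the reverse (12.3%). Against the SPP1 libraries, 22 were higher and none lower, beside 6.37% and 5.66%, with a median of 0.36. The rise against SPP1 was not particular to the 37: of 13 proliferation genes outside the list, 5 were higher there and 0 lower (median 0.19). Against the KDM1A libraries, 2 of these 13 were higher and 0 lower (median 0.08). For 19 of the 37 the CDKN1A and SPP1 libraries did not overlap, all with CDKN1A above, against 6.02% of all genes in that direction and 5.47% in the other. INPP5D passed the filter through the CDKN1A libraries alone, and without it the counts of calls were 19 and 21 of 36. It is also among the 29 and the 19 genes without overlap, where it had to differ for the same reason. The effective-length offset kept 17 of the 20 and 18 of the 22 calls, and with the libraries of each guide summed 12 and 10 were kept. Without the libraries of CDKN1A guide 1, 14 were higher than in the SPP1 libraries. These comparisons share the CDKN1A libraries, and 16 of the 37 were called in both.

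Apart from INPP5D, which had to differ through the filter (2.88 ± 0.31), the largest differences between the CDKN1A and KDM1A libraries were those of BTG2 (1.56 ± 0.27, adjusted p = 0.000605), PTCHD4 (1.43 ± 0.20, adjusted p = 7.68e-05) and SESN2 (1.20 ± 0.11, adjusted p = 1.38e-06). BBC3 (1.08 ± 0.20, adjusted p = 0.000977), SPATA18 (1.02 ± 0.11, adjusted p = 6.45e-06), TP53INP1 (0.99 ± 0.10, adjusted p = 2.45e-06) and FDXR (0.91 ± 0.12, adjusted p = 5.43e-05) followed. All 4 feedback genes were higher in the CDKN1A libraries: TP53INP1, MDM2 (0.56), PPM1D (0.49) and CCNG1 (0.25). Arrest genes were called in 3 of 6 cases (BTG2, CCNG2 and PLK3), repair genes in 3 of 5 (RRM2B, XPC and DDB2), and metabolic genes in 4 of 7 (SESN2, SPATA18, FDXR and SESN1). Genes of death and survival were called in 5 of 12 (INPP5D, BBC3, PHLDA3, EDA2R and AEN) and other targets in 1 of 3 (PTCHD4). CYFIP2 and POLH were the 2 of the 37 with a difference below 0, at -0.05 and -0.07.

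Against the SPP1 libraries, 6 of 7 metabolic genes were higher in the CDKN1A libraries: SPATA18 (1.07 ± 0.10, adjusted p = 3.86e-06), ACER2 (0.98 ± 0.29, adjusted p = 0.0317), FDXR (0.85), SESN2 (0.80), SESN1 (0.42) and DRAM1 (0.31), a lysosomal inducer of autophagy. Beside them were 4 of 6 arrest genes (BTG2, CCNG2, PLK3 and GADD45A), 2 of 5 repair genes (DDB2 and RRM2B), 2 of 4 feedback genes (TP53INP1 and MDM2) and all 3 other targets (PTCHD4, TRIM22 and ZMAT3). Of the genes of death and survival, 5 of 12 were higher: CYFIP2 (1.06 ± 0.10, adjusted p = 3.86e-06), BBC3 (0.87), PHLDA3 (0.36), AEN (0.18) and INPP5D (3.05 ± 0.28), the last of which had to differ through the filter. The KDM1A and SPP1 libraries differed in few of the 37: CYFIP2 was higher with KDM1A knockdown (1.11 ± 0.10, adjusted p = 6.44e-07), and CCNG2 (-0.27), XPC (-0.29) and SESN2 (-0.40) were lower, beside 6.90% of all genes called higher and 5.0% called lower. All KDM1A libraries were above all SPP1 libraries for 1 of the 37 and below them for 2 (all genes, 5.45% and 4.04%). The 3 lower calls were lost without either replicate of KDM1A guide 2, which left 0.

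**Figure D3:**
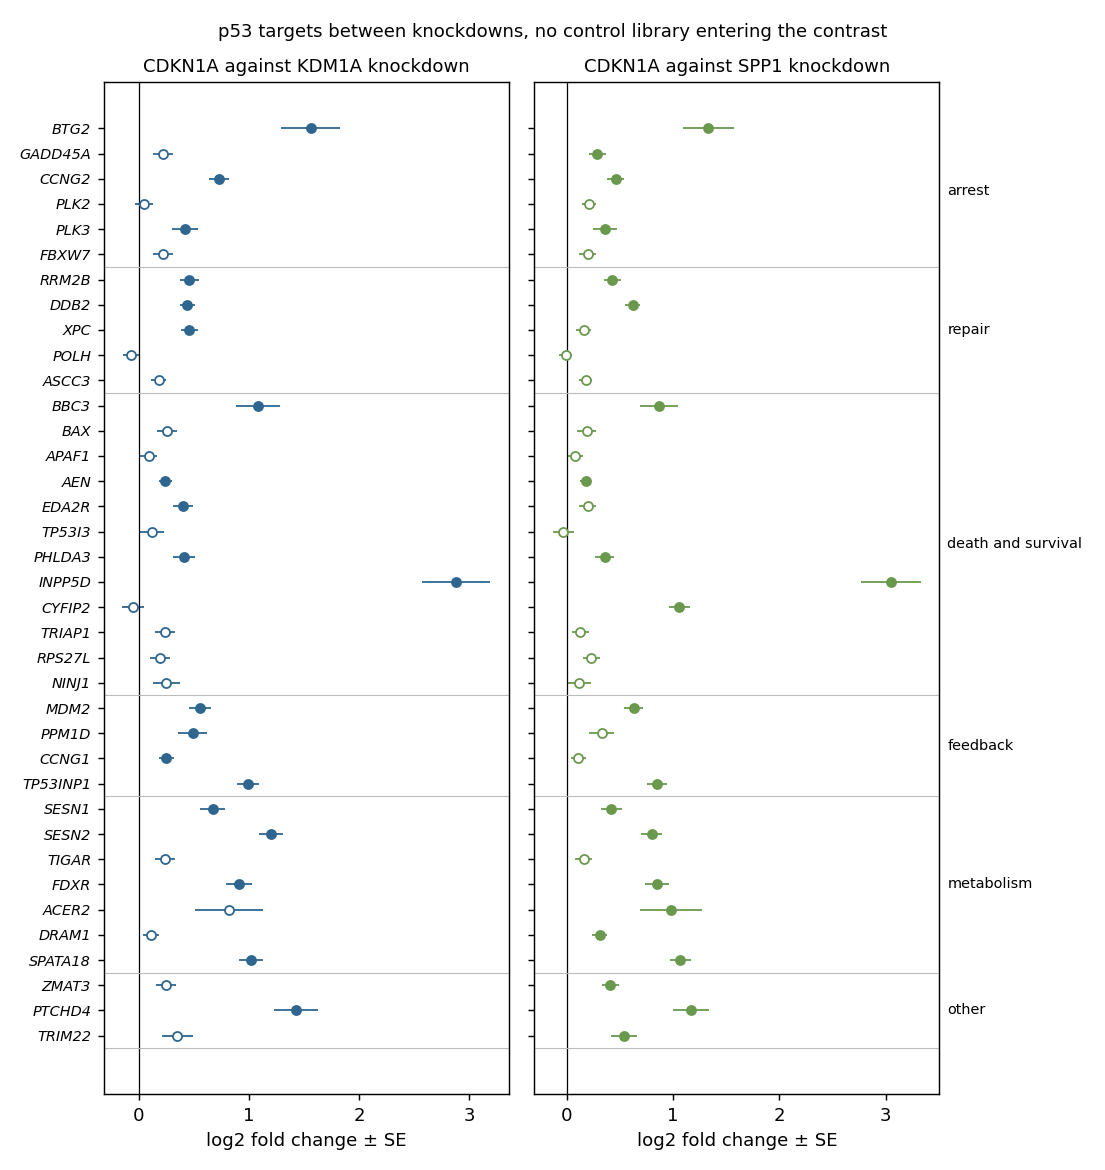
Log2 difference (± SE) of the CDKN1A libraries from the KDM1A libraries and from the SPP1 libraries for each of the 37 p53 targets, grouped by role. Filled points passed an adjusted p of 0.05: 20 against KDM1A and 22 against SPP1, all above 0. INPP5D, filled in both panels, passed the filter on low counts through the CDKN1A libraries alone.

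The guides of each target were then taken apart. CDKN1A mRNA was 46.3% of control with CDKN1A guide 1 and 70.6% with guide 2, a difference that passed the test (log2 0.61, adjusted p = 0.00485). Guide 1 raised 14 of the 37 and lowered 1, GADD45A, and guide 2 raised 12 and lowered none. These counts stand beside 2.35% of all genes called higher and 2.34% called lower with guide 1, and 2.90% and 3.32% with guide 2. Each guide raised all 10 genes that rose in the group, but those genes were chosen by a test on these same libraries and controls. INPP5D, in each of these counts of rises, passed the filter through the CDKN1A libraries alone. No p53 target passed the test between the CDKN1A guides in edgeR, where the differences ran from -0.54 to 0.37, with 4 above and 6 below 0 at an unadjusted p under 0.05, beside 0.732% of all genes called higher and 0.547% called lower with guide 2. KDM1A mRNA was 62.6% of control with KDM1A guide 2 and 43.4% with guide 3. Each guide lowered 10 of the 37 (all genes, 5.68% and 5.16%), and BTG2, GADD45A, PLK3, XPC, BBC3, AEN and SESN2 fell with both. KDM1A guide 2 raised 3 (CYFIP2, DRAM1 and TRIM22) and guide 3 raised 2 (CYFIP2 and TRIM22), beside 8.41% and 6.34% of all genes. SPP1 mRNA was 39.6%, 79.6% and 66.8% of control with guides 1, 2 and 3, and passed the test only with guide 1. The SPP1 guides lowered 7, 7 and 9 of the 37 (all genes, 2.59%, 5.23% and 5.99%), and GADD45A, PLK2 and SESN2 fell with every one. Guide 1 raised none (1.98%), guide 2 raised RRM2B, CCNG1 and TRIM22 (5.41%), and guide 3 raised TP53I3, a quinone oxidoreductase (4.56%). Between the KDM1A guides, guide 3 gave higher values for 1 of the 37 and lower values for 3 (all genes, 2.11% and 4.04%). SPP1 guide 2 gave higher values than guide 1 for 3 and lower values for 2 (1.27% and 1.13%), guide 3 gave lower values than guide 1 for 1 (1.12% higher and 1.69% lower over all genes), and guide 3 gave lower values than guide 2 for 1 (0.0591% higher and 0.155% lower).

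**Figure D4:**
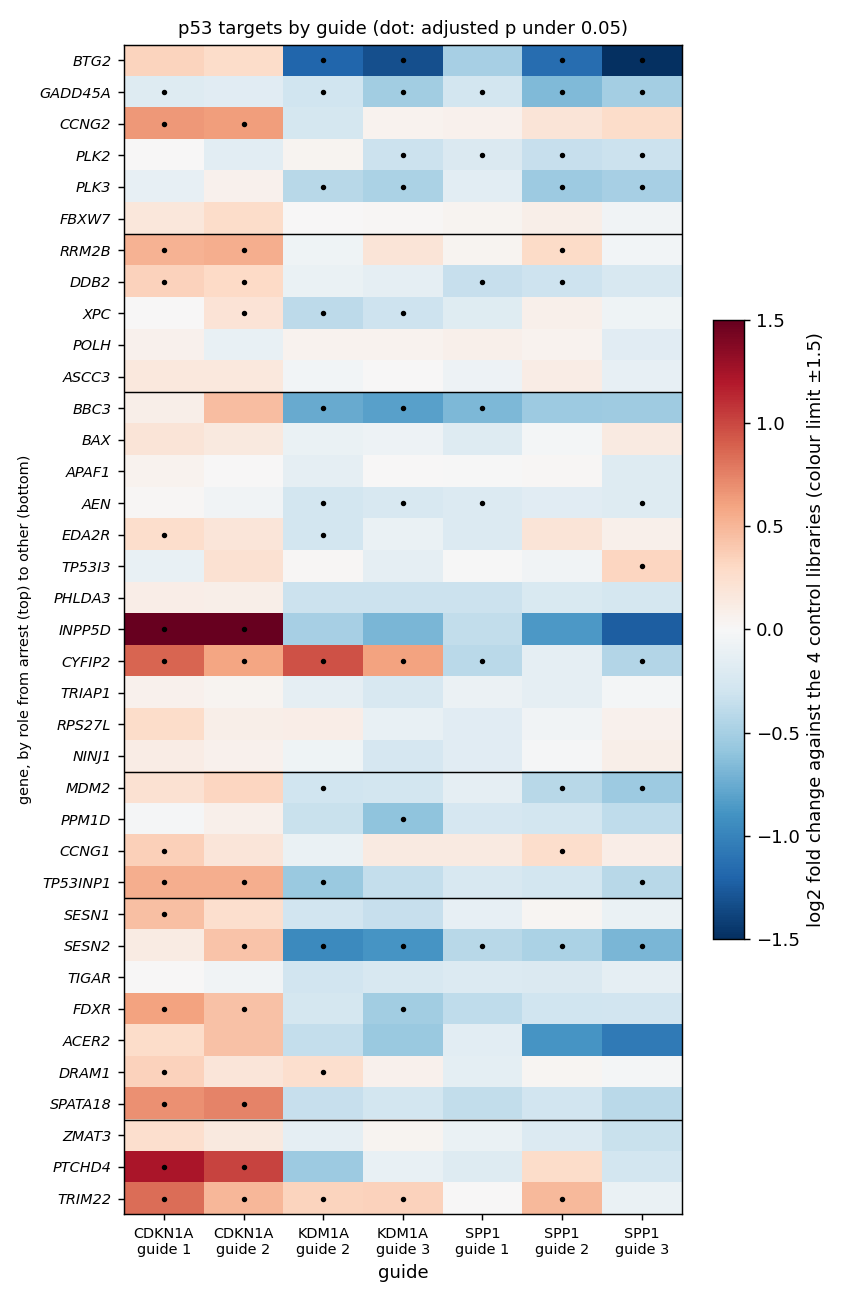
Heat map of the log2 fold change against the 4 control libraries of the 37 p53 targets (rows, by role) for each of the 7 guides to CDKN1A, KDM1A and SPP1 (columns); a dot marks an adjusted p under 0.05, and colours are limited at 1.5, which INPP5D exceeds. The CDKN1A columns carry 14 and 12 dots on higher values, and GADD45A, PLK2 and SESN2 carry dots on lower values in all 3 SPP1 columns. INPP5D, dotted in both CDKN1A columns, passed the filter on low counts through the CDKN1A libraries alone.

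In the median level per library the CDKN1A libraries stood above all others, the KDM1A and SPP1 libraries overlapped each other, and the SPP1 libraries also overlapped the controls. The median of the 37 log2 CPM, each taken relative to the mean of the controls, was -0.10 to 0.06 in the control, 0.19 to 0.23 in the CDKN1A, -0.24 to -0.16 in the KDM1A and -0.20 to -0.07 in the SPP1 libraries. The share of a gene's variance that lay between the 4 groups had a median of 61.9% over the 37, beside 33.1% over all genes tested. It was highest for CYFIP2 (91.7%), SPATA18 (91.4%), SESN2 (91.1%) and TP53INP1 (90.1%) and lowest for POLH (8.3%). The median of 13 proliferation genes was -0.03 to 0.08 in the control, 0.01 to 0.07 in the CDKN1A, -0.14 to 0.06 in the KDM1A and -0.21 to -0.04 in the SPP1 libraries. Fibroblast markers had a median of -0.29 to -0.02 and a sum of 13900 to 15700 CPM in the CDKN1A libraries, and summed to 15000 to 16900 CPM in the KDM1A and 15100 to 16200 CPM in the SPP1 libraries. Their part in the result was not tested, and in bulk RNA fewer cells of a type and less RNA per cell cannot be told apart.

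**Figure D5:**
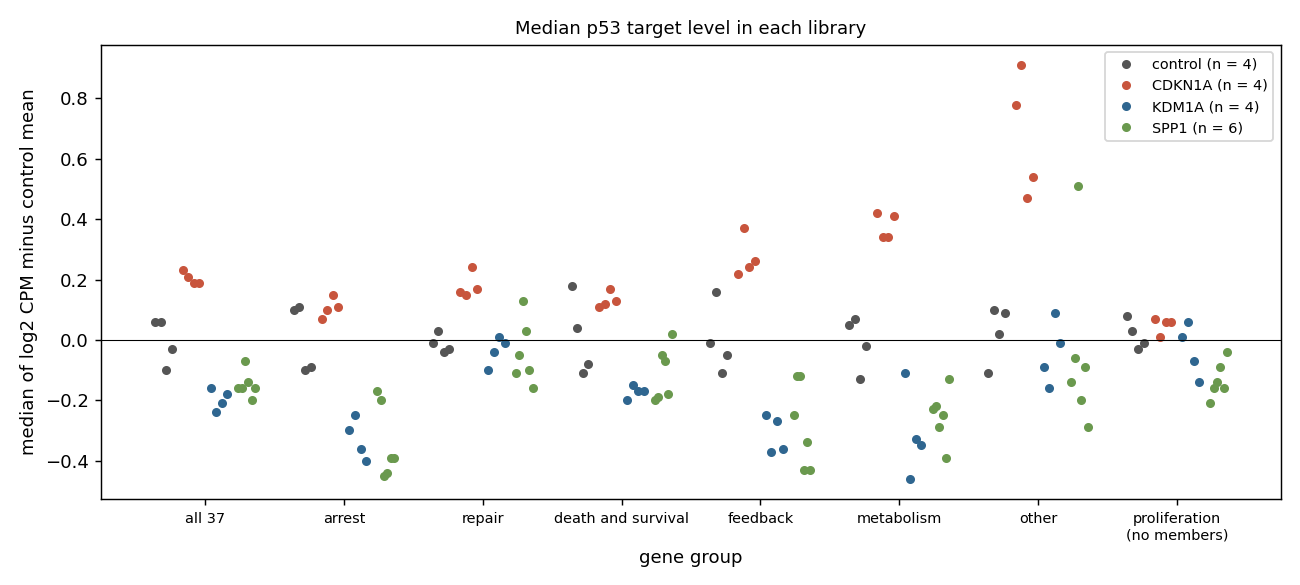
Median log2 CPM relative to the control mean (vertical axis) for each role of the p53 targets and for 13 proliferation genes, 1 point per library by group. Over all 37 targets the CDKN1A libraries lay at 0.19 to 0.23 and the KDM1A libraries at -0.24 to -0.16.

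Of 21 genes that modify or activate p53, 19 were tested (TP63 and TP73 were not), and in edgeR 0 were called with CDKN1A knockdown (2 higher and 0 lower at an unadjusted p under 0.05), 0 with SPP1 knockdown (1 and 3) and 1 lower with KDM1A knockdown. The shares of all genes called higher and lower were 1.09% and 0.917% with CDKN1A, 2.40% and 3.06% with SPP1, and 5.33% and 3.72% with KDM1A knockdown. SIRT1, a deacetylase of p53, was the 1 that fell (-0.24 ± 0.07, adjusted p = 0.0395). Of 28 further p53 targets tested, taken from a wider list, 3 rose and 1 (CDKN1A itself) fell with CDKN1A knockdown, 2 rose and 7 fell with KDM1A knockdown, and 1 rose and 5 fell with SPP1 knockdown. GDF15, a stress cytokine, rose with CDKN1A knockdown (0.64 ± 0.09, adjusted p = 0.00139) and fell with KDM1A (-0.68 ± 0.09, adjusted p = 0.000111) and SPP1 knockdown (-0.78 ± 0.09, adjusted p = 0.000235). TNFRSF10B, a death receptor, and PERP, a desmosomal protein, were the others that rose with CDKN1A knockdown (0.23 ± 0.06 and 0.27 ± 0.07). PERP also rose with KDM1A (0.80 ± 0.07, adjusted p = 4.68e-07) and SPP1 knockdown (0.27 ± 0.06, adjusted p = 0.0175). It was lower in the CDKN1A than in the KDM1A libraries (-0.53 ± 0.07, adjusted p = 2.88e-05). ATF3, a stress transcription factor, fell with KDM1A (-1.74 ± 0.24) and SPP1 knockdown (-1.45 ± 0.21). Of the 13 proliferation genes, CENPF, a kinetochore protein, rose with CDKN1A knockdown (0.28 ± 0.06, adjusted p = 0.0162), CDK1 fell with SPP1 knockdown (-0.26 ± 0.08, adjusted p = 0.0484), and none passed with KDM1A knockdown.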

How the data were processed

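Libraries were prepared with the NEBNext Ultra II kit after poly(A) selection, per the labels' protocols. For each library the authors deposited a kallisto table listing 188753 Ensembl transcripts, each with an estimated count, a TPM value and an effective length. The submitters' processing notes name GRCh38 (hg38), and no kallisto version. TPM deposited by the authors served only to compare levels between genes. GENCODE 29 matched 169797 transcripts (90.0%) to 35579 genes, and the transcripts without a match, with 2.49 to 2.62% of each library's counts, were left out.

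Estimated counts were summed per gene and rounded. With edgeR 4.0.16 in R 4.3.3, genes were kept by filterByExpr by group (count minimum 10), scaled by TMM, and fitted by the quasi-likelihood model to all 18 libraries with 1 coefficient per group, or per guide for the guide results. The SE was computed from the fold change and the F statistic. The common dispersion was 0.00869, a coefficient of variation of 9.32%. Log2 CPM carry a prior count of 2. Alternatives were no filter, RLE scaling, DESeq2 1.42.0, an effective-length offset, guides summed, only the groups compared, a replicate block, and leaving out libraries or guides.

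The members and lists were chosen with earlier results of these data known. In each comparison every target called there is named, and the others are given by counts and ranges or named for their levels. Genes outside the 37 are the knocked-down genes and up to 4 called genes of each list. Sequences are RefSeq's.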

Additional observations from a re-analysis of the deposited data

Results flagged for a closer look

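In groups of 4 to 10 libraries, 3 of 108 gene and group sets held a library far from the others by Dixon's criterion, which chance gives in about 1 in 20. MDM2 was lowest in CDKN1A guide 1 replicate 1 at 120.0 CPM, ZMAT3 lowest in SPP1 guide 3 replicate 2 at 66.8 CPM, and PTCHD4 highest in SPP1 guide 2 replicate 1 at 8.24 CPM.

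Guides of a target differed, by edgeR's test of the difference, in a few of the 37 genes. KDM1A guide 3 gave lower values than guide 2 for CYFIP2 (log2 difference -0.35), GADD45A (-0.22) and PLK2 (-0.36) and higher values for CCNG1 (0.24). SPP1 guide 2 gave lower values than guide 1 for GADD45A (-0.39) and PLK3 (-0.39) and higher values for EDA2R (0.40), TRIM22 (0.48) and XPC (0.26). SPP1 guide 3 gave lower BTG2 than guide 1 (-1.28) and lower TRIM22 than guide 2 (-0.59).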

How the results depend on the processing

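No call on a named gene reversed in any alternative. Counted once for each call in each alternative, 357 became weaker and 2294 kept their side of the threshold. Of the alternatives, 27 left out only 1 library or 1 guide, so these are not numbers of separate calls. With an effective-length offset, 3 of the 37 rose with CDKN1A knockdown, 7 fell with KDM1A knockdown, 4 fell with SPP1 knockdown and 0 were lower with KDM1A than with SPP1 knockdown. With the libraries of each guide summed, the counts were 0, 1, 0 and 0, and 12 and 10 of the 37 were higher with CDKN1A than with KDM1A and SPP1 knockdown. Fitting only the groups compared gave 2 rises with KDM1A knockdown, 3 falls and a median of -0.14 with SPP1 knockdown, and 1 lower with KDM1A than with SPP1 knockdown. RLE scaling and DESeq2 each gave 2 higher with KDM1A than with SPP1 knockdown. The cause was not tested. Leaving out 1 library or 1 guide gave 6 to 12 rises with CDKN1A knockdown, 1 to 13 falls with KDM1A knockdown (median -0.26 to -0.14) and 0 to 12 falls with SPP1 knockdown (median -0.20 to -0.09). It gave 15 to 25 higher with CDKN1A than with KDM1A knockdown (median 0.34 to 0.41), 14 to 25 higher than with SPP1 knockdown, and, for KDM1A against SPP1 knockdown, 1 to 3 higher and 0 to 4 lower. Over 36 pairs of guides, the correlation of deviations by replicate number was -0.12 to 0.07. No strong pairing by replicate number was seen, but such a correlation cannot tell whether libraries shared a culture or a day. With a replicate block, 10 rose with CDKN1A knockdown, 10 fell and 1 rose with KDM1A knockdown, 8 fell with SPP1 knockdown, 20 and 22 were higher with CDKN1A than with KDM1A and SPP1 knockdown, and 1 was higher and 2 were lower with KDM1A than with SPP1 knockdown.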
